A study of Mus musculus with 57 samples.

Results

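The p53 target genes described here are 10 mouse genes, Btg2, Ccng1, Cdkn1a, Plk2, Pmaip1, Bbc3, Eda2r, Phlda3, Mdm2 and Zmat3, followed in kidney arrays after ischemia and reperfusion. Each gene was read from the probe set annotated with its symbol and no other. Of the 10 genes, 9 had such a probe set, and each of these had exactly 1, among 19938 genes read this way on the array. The single probe set of Cdkn1a, which encodes the cell cycle inhibitor p21, carries a second symbol as well, so no level is given for it. All 9 genes passed the filter on low values (a log2 intensity above 5 in at least 3 arrays), which left 19244 genes in the tests. Eda2r lay above that level in 51 of 57 arrays and the other 8 genes in all 57.

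The series measured messages bound to ribosomes by translating ribosome affinity purification (TRAP), in which a ribosomal protein L10a fused to green fluorescent protein is switched on by Cre in 1 cell lineage and pulled down with its messages from whole kidney. Male mice had both renal pedicles clamped for 28 min (ischemia-reperfusion injury, IRI), had sham surgery without clamping, or had no surgery. The 57 arrays fall into 19 groups, of which 51 arrays hold TRAP RNA and 6 hold whole-kidney total RNA. All Cre lines carried the Rosa26-CAGGS-eGFPL10a allele, and every sample has a strain label of mixed C57BL/6 and 129, although the titles of the wild-type samples name C57BL/6 alone. The nephron line carried six2-CRE, with 3 arrays each at 4 h and 24 h after IRI and 24 h after sham surgery (age 8 weeks) and without surgery (6 weeks). The interstitial line (foxd1-CRE) and the endothelial line (cdh5-CRE) had 3 arrays each at 24 h after IRI, at 24 h after sham and without surgery, all at 6 weeks. The myeloid line (lyz2-CRE, labelled macrophage/monocyte) had the same 3 groups, with IRI at 9.5 weeks and the other groups at 7 weeks, so age and injury cannot be told apart there. Mice with the L10a allele and no Cre gave a background pull-down (4 IRI and 2 sham arrays at 24 h, 8 weeks); 1 label calls them homozygous and another heterozygous, and the labels name podocytes and some collecting duct cells as the cells that carry the tag without Cre. Wild-type mice, which carry no tag, gave a second background (4 IRI and 2 sham arrays at 24 h, 8 weeks). Total RNA came from heterozygous L10a littermates without Cre (3 IRI and 3 sham arrays at 24 h, 8 weeks).

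p53 is a transcription factor that is stabilised after DNA damage and other stress and that binds a paired decamer motif near its targets. Its targets slow the cell cycle, promote or restrain cell death, and include Mdm2, the ubiquitin ligase that removes p53 and closes a feedback loop. Several of them are also switched on by other stress pathways, so a rise in their messages is not by itself a measure of p53 activity, and the level of Trp53 itself was not analysed here. In kidney tubules, p53 and its targets have been studied after ischemic and toxic injury as regulators of tubular cell arrest and death.

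The promoters of the genes are shown first, and a link between their motifs and the changes below was not tested. RefSeq windows of 300 bases (250 before to 50 after a transcription start, build GRCm38.p6) were held for 8 of the 10 genes, in 11 windows, and for neither Pmaip1 nor Zmat3. The cAMP response element TGACGTCA, which reads the same on both strands, stood in the windows of 2 of these 8 genes, Btg2 and Plk2, and in 1.79% of all 32851 windows. Mdm2 and Bbc3, also called higher at 4 h in the nephron, had no such element in the windows held. The full windows of Btg2 (chr1:134079106-134079405, minus strand) and Plk2 (chr13:110394794-110395093, plus strand) are printed because these genes had 2 of the 3 largest rises at 4 h. They were thus picked with the rises known. The element is in capitals, beginning 166 and 62 bases before the start.
Btg2: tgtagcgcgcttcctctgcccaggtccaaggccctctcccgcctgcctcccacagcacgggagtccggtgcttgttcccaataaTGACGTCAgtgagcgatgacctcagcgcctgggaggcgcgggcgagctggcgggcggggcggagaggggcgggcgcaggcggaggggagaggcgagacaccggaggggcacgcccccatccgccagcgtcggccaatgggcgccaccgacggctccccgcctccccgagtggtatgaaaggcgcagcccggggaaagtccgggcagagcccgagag
Plk2: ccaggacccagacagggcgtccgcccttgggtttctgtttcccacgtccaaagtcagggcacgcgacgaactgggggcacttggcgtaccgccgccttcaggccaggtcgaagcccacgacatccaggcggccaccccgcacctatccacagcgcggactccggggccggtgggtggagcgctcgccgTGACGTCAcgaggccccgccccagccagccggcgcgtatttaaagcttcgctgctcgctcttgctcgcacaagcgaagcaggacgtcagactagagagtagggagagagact

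The p53 decamer motif, searched on both strands, matched exactly in windows of 3 of the 8 genes, Mdm2, Ccng1 and Cdkn1a, and in 8.36% of all windows. A pair of decamers at most 13 bases apart, with at most 3 mismatches and both cores intact, was found in windows of Bbc3 and Cdkn1a. Such a pair stood in 6.72% of all windows. The Cdkn1a pair in capitals below contains the exact decamers just counted. The matched stretches follow with 15 bases on each side and the decamers in capitals, to show which members carry the motif close to the start. They lie at chr10:117710920-117710959 (Mdm2, minus strand), chr11:40755447-40755486 (Ccng1, minus strand), chr7:16309471-16309520 (Bbc3, plus strand) and chr17:29090891-29090952 (Cdkn1a, plus strand).
Mdm2: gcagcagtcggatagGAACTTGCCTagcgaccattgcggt
Ccng1: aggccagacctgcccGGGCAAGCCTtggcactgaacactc
Bbc3: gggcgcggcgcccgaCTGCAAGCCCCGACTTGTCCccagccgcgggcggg
Cdkn1a: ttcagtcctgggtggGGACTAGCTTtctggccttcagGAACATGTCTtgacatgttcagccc
The Bbc3 pair had 3 mismatches and no spacer, and the Cdkn1a pair in capitals had 0 mismatches and a spacer of 12 bases. That Cdkn1a window held 2 pairs in all, and the other is not marked. Neither form was found in these windows of Btg2, Eda2r, Plk2 and Phlda3, which says only that these letters are not in these 300 bases. The AP-1 motif TGANTCA was in the windows of 0 of the 8 genes and in 7.81% of all windows. The CCAAT box stood in windows of 5 of the 8 genes and in 37.4% of all, and TATAAA in that of Eda2r and in 13.6% of all.

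Signal and purity bear on every value below. Median intensities were 105.8 to 128.4 in TRAP arrays and 43.9 to 53.3 in total RNA arrays, so levels were not compared between these 2 kinds of RNA. The endothelial and myeloid lines held the messages of their lineages. The summed intensity of 7 endothelial markers was 34670 to 37416 in endothelial sham arrays against 908 to 1081 in nephron sham arrays. That of 6 macrophage, monocyte and dendritic markers was 30397 to 32050 in myeloid and 1924 to 3255 in nephron sham arrays. It was 6123 to 6711 in interstitial and 19809 to 23171 in endothelial sham arrays, so the endothelial line held many of these messages as well. The 6 interstitial, pericyte and mesangial markers summed to 11795 to 13796 in interstitial and 1130 to 1276 in nephron sham arrays. In wild-type sham arrays, which carry no tag, they summed to 9234 to 9978. Tubule messages were present in every line, with summed intensities of 7 proximal tubule markers of 36660 to 40372 in nephron and 37726 to 41673 in interstitial sham arrays. This sum was 49815 to 50720 in wild-type sham arrays, so it did not set the nephron line apart after sham. Without surgery, 5 of 7 proximal tubule markers were higher in the nephron than in the mean of the other lines. All 5 podocyte markers were lower there. In bulk RNA such as this, fewer cells of a type and less RNA per cell cannot be told apart. All changes below are log2 differences of mean log2 intensity ± SE from 1 limma fit over all genes, with Benjamini-Hochberg adjusted p-values over all genes tested, and a gene was called higher or lower at an adjusted p under 0.05.

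In the injured nephron the p53 targets moved in a sequence. At 4 h after IRI, 5 of the 9 genes were higher than sham, 0 were lower and 4 were not called, with Plk2, Btg2 and Pmaip1 rising 6.97-fold, 5.61-fold and 5.42-fold. By 24 h, 6 of the 9 were higher and 0 lower, and the 6 included Eda2r, Phlda3 and Zmat3, which had not been called higher at 4 h. Across all genes, 18.1% were called at 4 h (7.53% higher, 10.6% lower) and 28.6% at 24 h (13.9% higher, 14.7% lower). The median change of the 9 genes was 0.34 at 4 h and 0.82 at 24 h, against -0.05 and -0.04 over all genes tested. Both comparisons use the same 3 sham arrays, which were taken at 24 h, and the 4 h arrays stand outside the running numbers that the other arrays carry in their labels, so time, the missing 4 h sham and any difference in handling cannot be told apart.

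**Figure D1:**
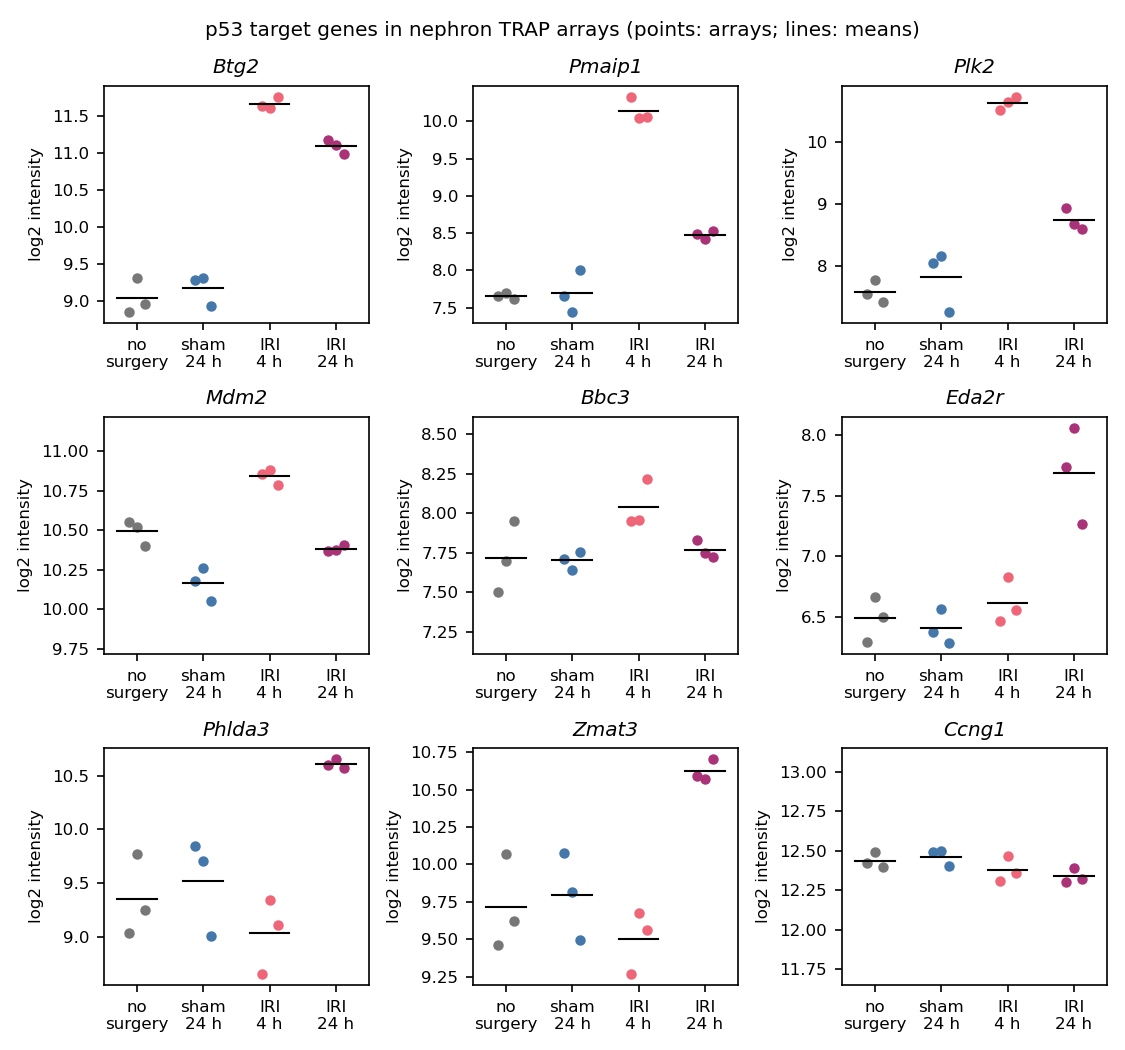
Log2 intensity of the 9 p53 target genes in the 3 arrays of each nephron group (without surgery, 24 h after sham, 4 h and 24 h after IRI), with points for arrays and lines for means. Btg2, Pmaip1 and Plk2 have their highest arrays at 4 h, while Eda2r, Phlda3 and Zmat3 have theirs at 24 h.

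Among the genes that restrain proliferation, Btg2, a transcription cofactor that slows entry into the cell cycle, was high at both times. Its log2 intensities were 9.29, 9.31 and 8.94 after sham, 11.63, 11.61 and 11.76 at 4 h, and 11.18, 11.11 and 10.99 at 24 h. No array of either IRI group overlapped the sham arrays, and all 24 h arrays lay below all 4 h arrays. The change from sham was 2.49 ± 0.15 at 4 h (limma adjusted p = 1.0e-13) and 1.91 ± 0.15 at 24 h (adjusted p = 2.2e-11). Ccng1, a cyclin that guides a phosphatase to Mdm2, behaved differently. It read 12.49, 12.50 and 12.40 after sham, 12.31, 12.47 and 12.36 at 4 h, and 12.30, 12.39 and 12.32 at 24 h. The 24 h arrays all lay just below the sham arrays, but the difference of -0.12 ± 0.13 was not called (95% interval -0.38 to 0.13, limma adjusted p = 0.52), nor was that of -0.08 ± 0.13 at 4 h (interval -0.34 to 0.17, adjusted p = 0.73).

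Plk2, a polo-like kinase that acts in centriole duplication and is induced by stress, had the largest rise of the 9 genes at 4 h. It read 8.05, 8.16 and 7.26 after sham, 10.51, 10.64 and 10.73 at 4 h, and 8.93, 8.68 and 8.61 at 24 h. The IRI arrays of both times lay above every sham array, and the third sham array was low. The change was 2.80 ± 0.24 at 4 h (limma adjusted p = 1.1e-10) and 0.92 ± 0.24 at 24 h (adjusted p = 0.0030). Without the third sham array the 24 h change was 0.63 and was no longer called (limma adjusted p = 0.058). Plk2 is highest in the endothelial line, and the summed intensity of the 7 endothelial markers in nephron arrays was 908 to 1081 after sham, 1311 to 1396 at 4 h and 1391 to 1768 at 24 h, with 2 of 7 called higher at 4 h and 4 of 7 at 24 h. Their part in the Plk2 result was not tested.

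Of the 2 BH3-only genes, whose products bind anti-apoptotic BCL2 proteins, only Pmaip1 (Noxa) moved by more than 1 log2 unit in the nephron. Pmaip1 read 7.66, 7.44 and 8.01 after sham, 10.33, 10.04 and 10.05 at 4 h, and 8.48, 8.42 and 8.53 at 24 h. The 3 groups did not overlap. Its change was 2.44 ± 0.16 at 4 h (limma adjusted p = 2.2e-13) and 0.77 ± 0.16 at 24 h (adjusted p = 2.3e-04). Bbc3 (Puma) read 7.71, 7.64 and 7.75 after sham, 7.95, 7.96 and 8.21 at 4 h, and 7.83, 7.75 and 7.72 at 24 h. The 4 h arrays lay above the sham arrays and the 24 h arrays overlapped them. The 4 h change of 0.34 ± 0.11 was called (limma adjusted p = 0.024), but not without the third 4 h array (0.25, adjusted p = 0.16), the first sham array (0.34, adjusted p = 0.057) or the second sham array (0.31, adjusted p = 0.090), and the 24 h difference was 0.07 ± 0.11 (95% interval -0.15 to 0.29, adjusted p = 0.72).

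Eda2r, a receptor of the tumor necrosis factor family that binds ectodysplasin A2, and Phlda3, which competes with Akt for membrane lipids, rose late. Eda2r read 6.38, 6.57 and 6.29 after sham, 6.47, 6.83 and 6.56 at 4 h, and 7.73, 8.06 and 7.27 at 24 h. The 4 h arrays overlapped the sham arrays, while every 24 h array lay above both. The change was 0.21 ± 0.16 at 4 h (limma adjusted p = 0.44) and 1.27 ± 0.16 at 24 h (adjusted p = 2.2e-07). Phlda3 read 9.84, 9.70 and 9.00 after sham, 8.65, 9.34 and 9.11 at 4 h, and 10.60, 10.66 and 10.57 at 24 h. The 24 h arrays were the highest of the 3 groups and nearly equal, and the third sham array lay among the 4 h arrays. The change was -0.48 ± 0.22 at 4 h (limma adjusted p = 0.13) and 1.09 ± 0.22 at 24 h (adjusted p = 2.0e-04). Without the third sham array the 4 h difference was -0.74 and was called lower (limma adjusted p = 0.025).

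Zmat3, a zinc finger protein that binds RNA and affects splicing and stability, followed the same course as these late genes. It read 10.08, 9.81 and 9.50 after sham, 9.27, 9.68 and 9.57 at 4 h, and 10.59, 10.57 and 10.70 at 24 h. The 4 h and sham arrays overlapped and the 24 h arrays lay above both. The change was -0.29 ± 0.20 at 4 h (limma adjusted p = 0.36) and 0.82 ± 0.20 at 24 h (adjusted p = 0.0017). Mdm2, the feedback ligase, rose early. It read 10.18, 10.26 and 10.05 after sham, 10.85, 10.88 and 10.79 at 4 h, and 10.37, 10.38 and 10.41 at 24 h. All arrays of both IRI groups lay above the sham arrays, and the 4 h arrays were the highest. Unoperated nephron arrays read 10.40 to 10.56, below the 4 h arrays and overlapping the 24 h arrays. The change was 0.68 ± 0.15 at 4 h (limma adjusted p = 0.0012), and the 24 h difference of 0.22 ± 0.15 was not called (95% interval -0.09 to 0.53, adjusted p = 0.31) except in a fit of these groups alone (adjusted p = 0.045).

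The difference between the times was tested directly. From 4 h to 24 h, 3 of the 9 genes were higher and 4 were lower, where 27.7% of all genes were called (14.9% higher and 12.8% lower). The 3 genes that rose were Phlda3 (1.58 ± 0.22, limma adjusted p = 9.8e-07), Zmat3 (1.12 ± 0.20, adjusted p = 4.8e-05) and Eda2r (1.07 ± 0.16, adjusted p = 4.9e-06). The 4 that fell were Plk2 (-1.88 ± 0.24, limma adjusted p = 1.6e-07), Pmaip1 (-1.67 ± 0.16, adjusted p = 7.4e-10), Btg2 (-0.57 ± 0.15, adjusted p = 0.0043) and Mdm2 (-0.46 ± 0.15, adjusted p = 0.020). The arrays of the 2 times did not overlap for these 3 and these 4 genes, nor for Bbc3, against 24.9% of all genes that were higher and 23.3% that were lower without overlap. The difference of Bbc3, -0.27 ± 0.11, missed the threshold (limma adjusted p = 0.057) and passed it in a fit of these groups alone (adjusted p = 0.041). The fall of Mdm2 was not called when either of the first 2 arrays of the 24 h group or of the 4 h group was left out (adjusted p = 0.051 to 0.059). Over the same interval, tubule markers fell: 5 of 6 distal tubule and thick limb markers, 4 of 6 of the collecting duct and 2 of 7 of the proximal tubule were called lower. The distal tubule and thick limb sum was 22684 to 24491 after sham, 29091 to 31227 at 4 h and 15768 to 17530 at 24 h. That of the collecting duct was 3624 to 4294, 4987 to 5309 and 1716 to 2281. Both sums thus stood above sham at 4 h, while the proximal tubule sum overlapped (36660 to 40372 after sham, 39412 to 41569 at 4 h). The part of these markers in the members' changes, also from sham to 4 h, was not tested.

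Few of these genes were called between sham surgery and no surgery, which is to be read against the shares of all genes called. Sham and unoperated nephron arrays, which also differ in age, differed in 0 of the 9 genes by limma at an adjusted p under 0.05 and in 1 at an unadjusted p under 0.05, where 1.62% of all genes were called. That gene was Mdm2, with all sham arrays below the unoperated ones (-0.33 ± 0.15, limma adjusted p = 0.36). In the endothelial and myeloid lines 0 of the 9 were called by limma as well (0.738% and 1.68% of all genes), and 1 and 0 had an unadjusted p under 0.05. Eda2r was the endothelial gene (-0.50 ± 0.16, limma adjusted p = 0.28), and it was called lower after sham without the third unoperated array (-0.73, adjusted p = 0.021). In the interstitial line Phlda3 was lower after sham (10.07, 10.25 and 9.75) than without surgery (11.12, 10.61 and 10.44), a difference of -0.70 ± 0.22 (limma adjusted p = 0.038), where 10.3% of all genes were called (5.4% higher, 4.91% lower). Those arrays did not overlap, but the call was lost without the first or second unoperated array or without the first or the third sham array, at differences of -0.75 to -0.50.

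The 4 lineages started from different levels of these genes. Each line was compared, without surgery, with the mean of the other 3 lines; each contrast uses the same 12 arrays, so a high value in 1 line lowers the others. Of the 9 genes, 3 were higher and 3 lower in the nephron line, where 51.3% of all genes were called (29.2% higher, 22.1% lower). The interstitial line had 1 higher and 5 lower, where 32.7% of all genes were called (13% higher, 19.6% lower). The endothelial line had 3 higher and 2 lower, where 41.1% were called (20.9% higher, 20.3% lower), and the myeloid line 3 higher and 4 lower, where 37.7% were called (16.9% higher, 20.9% lower).

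Plk2 marked the endothelial line. Its mean log2 intensity without surgery was 10.34 ± 0.15 (SD, n = 3) in endothelial arrays, 7.59 ± 0.18 in nephron, 7.45 ± 0.08 in interstitial and 7.28 ± 0.18 in myeloid arrays. Neighbours among the last 3 lines overlapped, and the endothelial excess over the mean of the other lines was 2.90 ± 0.19 (limma adjusted p = 1.8e-14). Zmat3 was highest in the nephron at 9.72 ± 0.31 (SD, n = 3), followed by the interstitial line at 9.02 ± 0.32, the endothelial line at 8.66 ± 0.06 and the myeloid line at 8.38 ± 0.21. Interstitial and endothelial arrays overlapped and the other neighbours did not. The nephron excess was 1.03 ± 0.16 (limma adjusted p = 2.0e-06).

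Mdm2 and Ccng1 were also highest in the unoperated nephron. Mdm2 read 10.50 ± 0.08 (SD, n = 3) in nephron, 9.86 ± 0.11 in interstitial, 9.75 ± 0.13 in myeloid and 9.68 ± 0.11 in endothelial arrays, and the last 3 overlapped. Ccng1 read 12.44 ± 0.05 (SD, n = 3) in nephron, 12.27 ± 0.13 in interstitial, 11.98 ± 0.06 in myeloid and 11.72 ± 0.09 in endothelial arrays, with no overlap between neighbouring lines. The nephron excess was 0.73 ± 0.12 for Mdm2 (limma adjusted p = 5.2e-06) and 0.45 ± 0.10 for Ccng1 (adjusted p = 3.7e-04), and the endothelial line was lower in both, by -0.35 ± 0.12 (adjusted p = 0.020) and -0.51 ± 0.10 (adjusted p = 1.1e-04). The endothelial call of Mdm2 was lost without the second (-0.34, limma adjusted p = 0.072) or the third unoperated endothelial array (-0.30, adjusted p = 0.11).

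Btg2, Pmaip1 and Bbc3 were highest in the myeloid line. Btg2 read 11.08 ± 0.08 (SD, n = 3) in myeloid, 10.64 ± 0.22 in endothelial, 9.70 ± 0.32 in interstitial and 9.04 ± 0.24 in nephron arrays, and no neighbouring lines overlapped. The nephron, where Btg2 rose most after IRI, was thus the line with the least Btg2 before it (-1.43 ± 0.13 against the other lines, limma adjusted p = 8.9e-12). Pmaip1 read 8.45 ± 0.13 (SD, n = 3) in myeloid, 7.87 ± 0.19 in endothelial, 7.66 ± 0.04 in nephron and 7.16 ± 0.15 in interstitial arrays, and Bbc3 read 8.30 ± 0.14, 7.95 ± 0.10, 7.72 ± 0.22 and 7.66 ± 0.16 in the same order of lines. Myeloid arrays stood clear of the rest for both genes, with an excess of 0.89 ± 0.13 for Pmaip1 (limma adjusted p = 6.8e-07) and 0.52 ± 0.09 for Bbc3 (adjusted p = 1.1e-05).

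Without surgery, Phlda3 was highest in the interstitial line and Eda2r was low in every line. Phlda3 read 10.72 ± 0.35 (SD, n = 3) in interstitial, 9.42 ± 0.39 in endothelial, 9.35 ± 0.37 in nephron and 8.73 ± 0.16 in myeloid arrays; endothelial and nephron arrays overlapped. The interstitial excess was 1.56 ± 0.18 (limma adjusted p = 9.7e-09). After sham surgery the interstitial Phlda3 arrays (9.75 to 10.25) overlapped the nephron arrays (9.00 to 9.84). Eda2r read 6.75 ± 0.43 (SD, n = 3) in endothelial, 6.49 ± 0.18 in nephron, 6.04 ± 0.06 in interstitial and 5.97 ± 0.10 in myeloid arrays, with overlap at the first and the last step of that order. Its endothelial excess of 0.58 ± 0.13 was called (limma adjusted p = 5.4e-04).

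After IRI, most of the p53 targets were called higher in the interstitial and endothelial lines, and fewer were called in the myeloid line. At 24 h, 7 of the 9 genes were higher and 0 lower in the interstitial line (39.4% of all genes called, 19.3% higher and 20% lower), 6 higher and 1 lower in the endothelial line (43.2%, 21.5% higher and 21.7% lower), and 2 higher and 1 lower in the myeloid line (27.9%, 13.1% higher and 14.8% lower). The median change of the 9 genes was 0.66, 0.46 and 0.04 in these lines, against 0.05, 0.07 and -0.02 over all genes. All 5 neutrophil markers were higher after IRI in each of these lines, with summed intensities of 328 to 375 after sham and 1563 to 1873 after IRI in the interstitial line, 1270 to 2751 and 9208 to 10223 in the endothelial line, and 2329 to 3177 and 13454 to 17684 in the myeloid line. In the nephron line 1 of 5 was higher, and the sum went from 339 to 356 after sham to 377 to 576 at 24 h. Other markers moved as well. The proximal tubule sum went from 37726 to 41673 after sham to 18234 to 21392 after IRI in the interstitial line and from 10555 to 23676 to 5208 to 5758 in the myeloid line, with 6 of 7 markers lower in each. The macrophage, monocyte and dendritic sum went from 19809 to 23171 to 11053 to 14545 in the endothelial line and from 6123 to 6711 to 3070 to 4633 in the interstitial line, with 4 of 6 markers lower in each. The part of these messages in the members' changes was not tested.

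**Figure D2:**
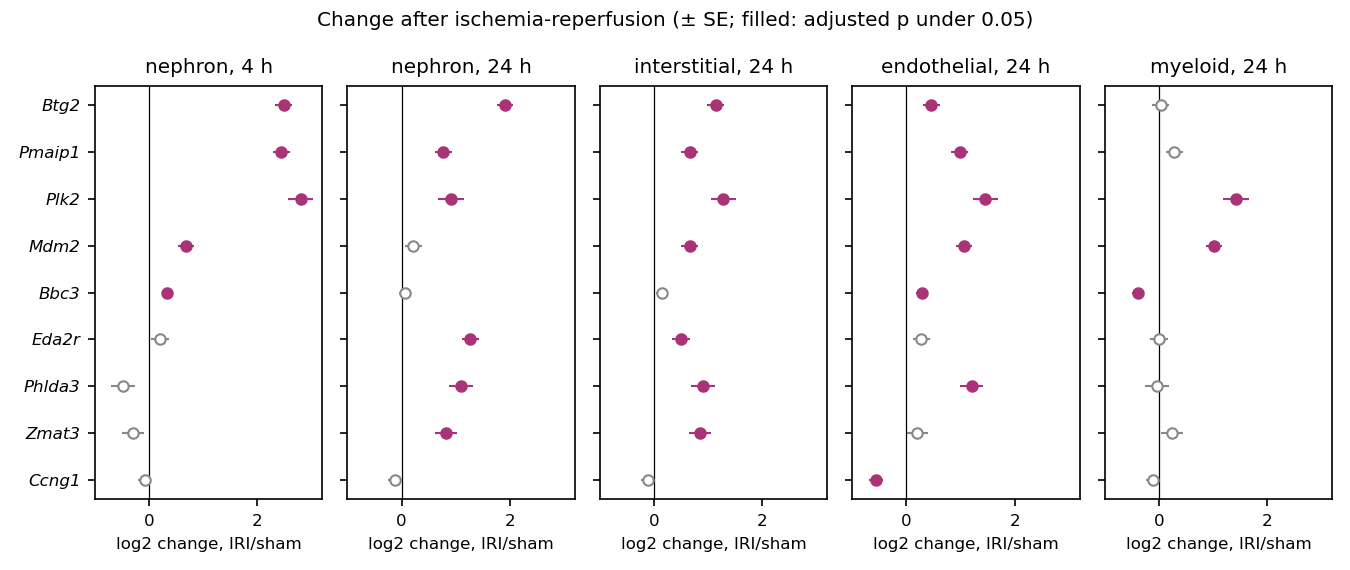
Log2 change from sham (± SE) of the 9 p53 target genes in the nephron at 4 h and 24 h and in the interstitial, endothelial and myeloid lines at 24 h after IRI; filled points have an adjusted p under 0.05. Plk2 is filled in all 5 comparisons, and Btg2 ranges from 2.49 in the nephron at 4 h to 0.04 in the myeloid line.

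Plk2 was higher after IRI in all 4 lines. In the interstitial line it read 7.46, 7.23 and 7.35 after sham and 8.14, 8.70 and 9.04 after IRI, in the endothelial line 9.87, 9.57 and 10.28 and 11.21, 11.49 and 11.40, and in the myeloid line 6.84, 7.36 and 7.21 and 8.85, 7.92 and 8.91. No IRI array overlapped its sham arrays. The changes were 1.28 ± 0.24, 1.46 ± 0.24 and 1.43 ± 0.24 (limma adjusted p = 4.3e-05, 4.9e-06 and 1.4e-05). Mdm2 rose in these 3 lines by 0.66 ± 0.15, 1.07 ± 0.15 and 1.01 ± 0.15 (limma adjusted p = 6.4e-04, 5.1e-07 and 2.2e-06). Its arrays read 9.84, 9.76 and 9.71 after sham and 10.77, 10.90 and 10.85 after IRI in the endothelial line, and 9.72, 9.72 and 9.87 and then 10.81, 10.67 and 10.87 in the myeloid line. Mdm2 arrays after IRI thus lay above every sham array in each line, the nephron included, where the 24 h difference was not called. In the nephron the 24 h IRI arrays overlapped the unoperated arrays, with the lower mean (10.38 against 10.50).

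Phlda3 and Pmaip1 rose in the interstitial and endothelial lines. Phlda3 read 10.07, 10.25 and 9.75 after sham and 10.98, 11.03 and 10.77 after IRI in the interstitial line (0.90 ± 0.22, limma adjusted p = 0.0013), and 9.16, 8.95 and 9.09 and then 10.43, 10.19 and 10.20 in the endothelial line (1.20 ± 0.22, adjusted p = 3.2e-05). In the interstitial line the IRI arrays overlapped the unoperated arrays (11.12, 10.61 and 10.44), which were themselves above sham. Pmaip1 rose by 0.66 ± 0.16 in the interstitial line (limma adjusted p = 0.0010) and 0.99 ± 0.16 in the endothelial line (adjusted p = 3.8e-06). In the myeloid line Phlda3 read 8.27, 8.47 and 8.70 after sham and 8.55, 8.33 and 8.46 after IRI, and Pmaip1 read 8.51, 8.19 and 8.61 and then 8.87, 8.57 and 8.72. The arrays of both genes overlapped there, with differences of -0.03 ± 0.22 and 0.28 ± 0.16 that were not called (limma adjusted p = 0.94 and 0.21).

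Outside the nephron, Btg2 was also called in the interstitial and endothelial lines, and Eda2r and Zmat3 in the interstitial line alone. Btg2 read 9.72, 9.91 and 9.75 after sham and 10.76, 10.83 and 11.22 after IRI in the interstitial line, 10.58, 10.49 and 10.67 and then 10.96, 11.13 and 11.04 in the endothelial line, and 11.15, 11.15 and 11.12 and then 11.08, 11.18 and 11.26 in the myeloid line. The first 2 lines showed no overlap and the myeloid arrays overlapped. All 4 lines ended within 10.94 to 11.17 in mean log2 intensity after IRI. The changes were 1.14 ± 0.15, 0.46 ± 0.15 and 0.04 ± 0.15 (limma adjusted p = 3.0e-07, 0.015 and 0.91). The endothelial call of Btg2 was lost without the second IRI array (0.42, limma adjusted p = 0.061) or the second sham array (0.41, adjusted p = 0.064). Eda2r rose by 0.50 ± 0.16 in the interstitial line (limma adjusted p = 0.014), and its differences of 0.28 ± 0.16 in the endothelial line and 0.00 ± 0.16 in the myeloid line were not called. Under quantile normalization the interstitial change of Eda2r was 0.40 and was not called (limma adjusted p = 0.074), nor was it without the second sham array (0.47, adjusted p = 0.051). Zmat3 rose by 0.85 ± 0.20 in the interstitial line (limma adjusted p = 9.0e-04), with differences of 0.20 ± 0.20 and 0.25 ± 0.20 in the other lines that were not called (adjusted p = 0.43 and 0.42).

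Bbc3 and Ccng1 gave the falls. Ccng1 read 11.75, 11.90 and 11.74 after sham and 11.46, 11.14 and 11.11 after IRI in the endothelial line. Those arrays did not overlap, and the change was -0.56 ± 0.13 (limma adjusted p = 4.3e-04). Bbc3 read 8.38, 8.03 and 8.16 after sham and 7.80, 7.74 and 7.89 after IRI in the myeloid line, again with no overlap, and the change was -0.38 ± 0.11 (limma adjusted p = 0.0066). The fall of Bbc3 was not called without the first myeloid sham array (-0.29, limma adjusted p = 0.073). Bbc3 rose by 0.29 ± 0.11 in the endothelial line (limma adjusted p = 0.031), a call that was lost in 5 of the 6 fits that left out 1 array of those groups (adjusted p = 0.052 to 0.13).

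Whether the responses differed between lines was tested as a difference of differences. By a limma F test across the 4 lines, 5 of the 9 genes differed, where 46.6% of all genes did: Btg2 (adjusted p = 1.0e-07), Eda2r (2.4e-04), Bbc3 (0.0032), Mdm2 (0.0043) and Phlda3 (0.0050). Pmaip1 (adjusted p = 0.053), Ccng1 (0.073), Zmat3 (0.078) and Plk2 (0.44) did not pass. Without the total RNA arrays, Pmaip1 (limma F test, adjusted p = 0.024), Ccng1 (0.0055) and Zmat3 (0.011) passed as well. In that fit Mdm2 was also called larger against the other lines in the endothelial response (0.44, limma adjusted p = 0.0035). The same held in the myeloid response (0.37, limma adjusted p = 0.017). Against the mean response of the other 3 lines, the nephron response was larger for Btg2 by 1.37 ± 0.18 (limma adjusted p = 7.1e-07) and for Eda2r by 1.02 ± 0.19 (adjusted p = 1.5e-04), and smaller for Mdm2 by -0.69 ± 0.17 (adjusted p = 0.0035), where 23.3% of all genes were called (11.9% higher, 11.4% lower). The myeloid response was smaller for 5 genes, where 18.5% of all genes were called (9.34% higher, 9.14% lower): Btg2 by -1.14 ± 0.18, Phlda3 by -1.10 ± 0.25, Eda2r by -0.69 ± 0.19, Bbc3 by -0.55 ± 0.12 and Pmaip1 by -0.53 ± 0.18 (limma adjusted p = 1.7e-05, 0.0021, 0.0092, 0.0017 and 0.039). The Pmaip1 difference was lost under quantile normalization (-0.52, adjusted p = 0.060) and, among the 6 myeloid arrays, without any of 4 (adjusted p = 0.077 to 0.15), and without any of 7 arrays of the other lines (adjusted p = 0.051 to 0.060). The endothelial response was larger for Bbc3 by 0.34 ± 0.12 and smaller for Btg2 by -0.57 ± 0.18 and Ccng1 by -0.45 ± 0.15 (limma adjusted p = 0.036, 0.015 and 0.019), where 29% of all genes were called (14% higher, 15% lower). Without the second or the third endothelial IRI array or the second sham array, Btg2 alone was called there. The interstitial response differed in 0 of the 9 genes by limma, with differences of -0.11 to 0.42, adjusted p from 0.21 to 0.98 and 0 at an unadjusted p under 0.05, where 15.9% of all genes were called. Plk2 was the gene whose response differed least by this test, and the interval of its nephron difference from the other lines ran from -1.03 to 0.08.

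The pull-downs without Cre were read on the same normalized scale, which gives the make-up of the RNA and not the amount pulled down, and p53 targets differed with injury there too. In wild-type background arrays, 5 of the 9 genes were higher after IRI and 0 lower, where 37.9% of all genes were called (20.2% higher, 17.7% lower): Btg2 (1.56 ± 0.17), Plk2 (1.38 ± 0.23), Pmaip1 (0.90 ± 0.19), Zmat3 (0.74 ± 0.21) and Mdm2 (0.65 ± 0.15), with limma adjusted p of 4.3e-10, 5.1e-06, 1.3e-04, 0.0047 and 5.5e-04. In L10a background arrays 5 of the 9 were higher and 0 lower, where 38.4% of all genes were called (19% higher, 19.4% lower): Plk2 (1.31 ± 0.23), Phlda3 (1.02 ± 0.28), Pmaip1 (0.82 ± 0.19), Btg2 (0.43 ± 0.17) and Mdm2 (0.43 ± 0.15), with limma adjusted p of 1.4e-05, 0.0033, 4.8e-04, 0.041 and 0.024. Leaving out either L10a sham array removed the calls of Btg2 and Mdm2, and that of Btg2 was also lost without the first or the third IRI array and under quantile normalization (limma adjusted p = 0.051 to 0.31). Phlda3 in wild-type IRI arrays read 9.72, 7.99, 8.22 and 8.36 against 7.92 and 7.86 after sham, with 1 array far above the others, and its difference of 0.68 ± 0.28 missed the threshold (limma adjusted p = 0.050). It was called without any 1 of the other 3 IRI arrays (0.75 to 0.88, limma adjusted p = 0.012 to 0.043).

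**Figure D3:**
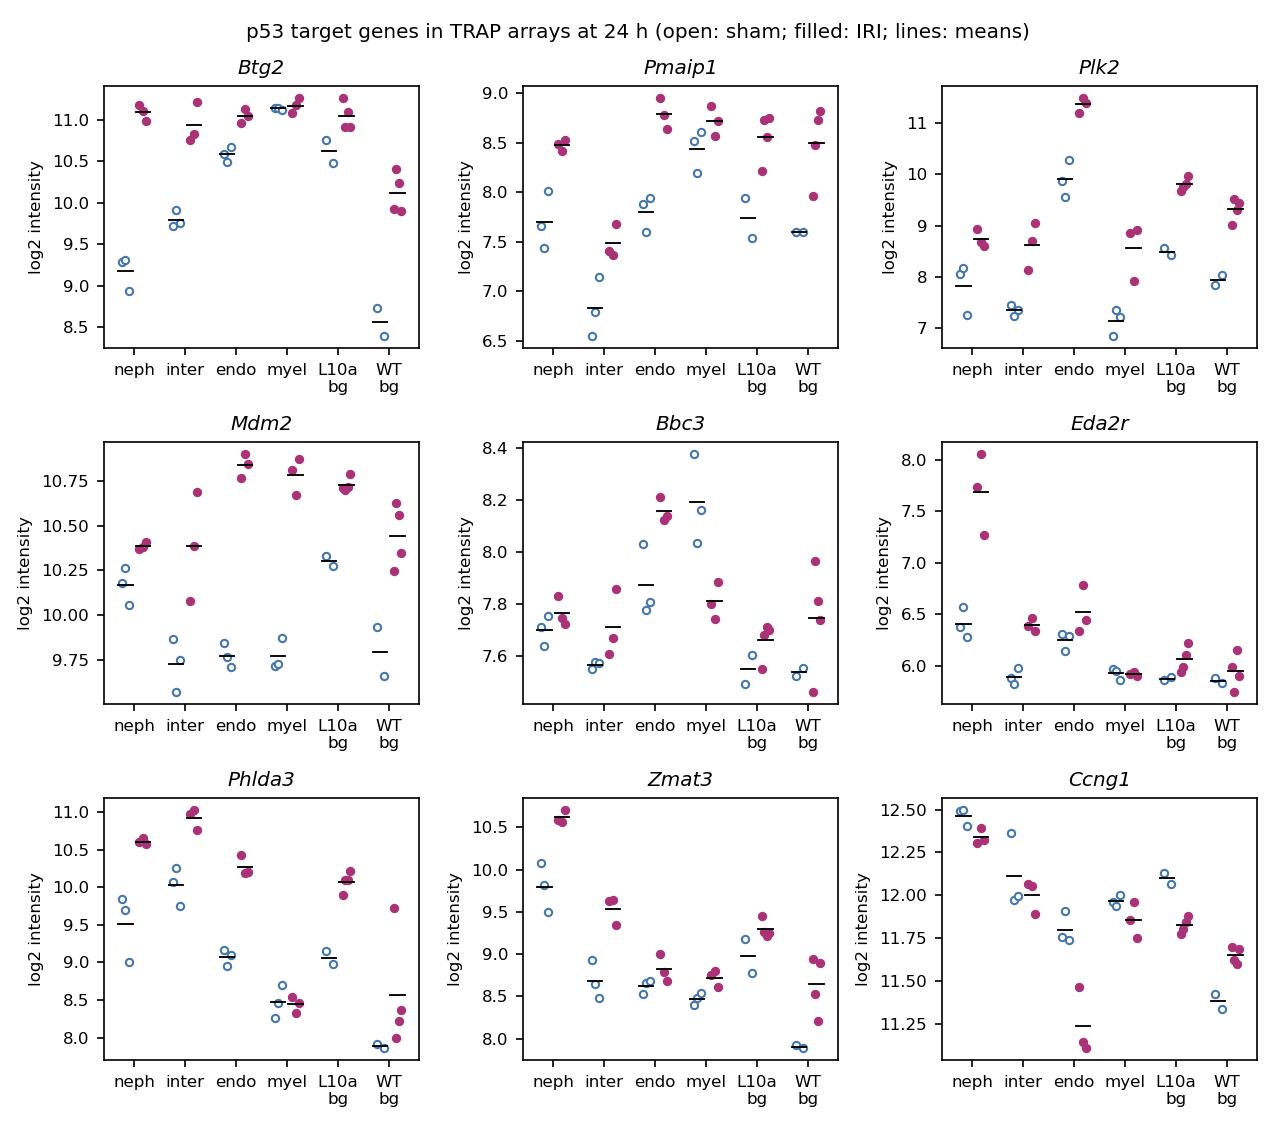
Log2 intensity of the 9 p53 target genes at 24 h in the nephron, interstitial, endothelial and myeloid lines and in the L10a and wild-type (WT) background pull-downs; open points are sham arrays, filled points IRI arrays and lines means. Eda2r, Phlda3 and Zmat3 lie higher in nephron IRI arrays than in wild-type background IRI arrays, while Pmaip1, Bbc3 and Mdm2 overlap between them.

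Relative levels in the nephron and wild-type pull-downs were then compared. Their make-up differed: the 7 endothelial markers summed to 1391 to 1768 in nephron and 10922 to 16516 in wild-type IRI arrays, all 7 of them called lower in the nephron, while the proximal tubule sum was 29790 to 31984 and 33569 to 42645 (36660 to 40372 and 49815 to 50720 after sham). The 6 interstitial, pericyte and mesangial markers summed to 1428 to 1742 in nephron and 4607 to 12114 in wild-type IRI arrays. The part of all these markers in the members' differences was not tested. In a direct comparison of the 2 sets of IRI arrays, 5 of the 9 genes were higher in the nephron and 1 was lower, where 44% of all genes were called (25.3% higher, 18.7% lower). Phlda3 was higher by 2.04 ± 0.25, Zmat3 by 1.98 ± 0.19, Eda2r by 1.74 ± 0.15, Btg2 by 0.98 ± 0.15 and Ccng1 by 0.69 ± 0.11 (limma adjusted p = 4.0e-09, 8.5e-12, 2.6e-13, 5.1e-07 and 7.8e-07). Plk2 was lower by -0.58 ± 0.21 (limma adjusted p = 0.021), a call lost without the second or the third nephron array or the second or the fourth wild-type array (adjusted p = 0.051 to 0.086). Mdm2 (-0.06, 95% interval -0.33 to 0.21), Pmaip1 (-0.02, interval -0.36 to 0.31) and Bbc3 (0.02, interval -0.18 to 0.23) were not called. Pmaip1 read 8.48, 8.42 and 8.53 in nephron IRI arrays and 7.96, 8.48, 8.73 and 8.82 in wild-type IRI arrays. The nephron values of Pmaip1 lay within the range of the wild-type values. After sham surgery, 5 of the 9 were higher in the nephron than in wild-type background arrays, where 48.3% of all genes were called (28.8% higher, 19.5% lower): Zmat3 (1.89 ± 0.22), Phlda3 (1.63 ± 0.29), Ccng1 (1.08 ± 0.13), Btg2 (0.62 ± 0.18) and Eda2r (0.55 ± 0.17), with limma adjusted p of 1.3e-09, 8.8e-06, 1.2e-09, 0.0032 and 0.0069. Without the second wild-type sham array 3 remained called, and Btg2 (0.45, limma adjusted p = 0.11) and Eda2r (0.53, adjusted p = 0.056) did not pass. No background arrays at 4 h were analysed here.

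In whole-kidney total RNA, 3 of the 9 genes were higher after IRI and 0 lower, where 31% of all genes were called (15.7% higher, 15.3% lower). Btg2 read 7.19, 7.33 and 7.37 after sham and 8.22, 9.02 and 8.90 after IRI, without overlap, and rose by 1.42 ± 0.15 (limma adjusted p = 1.3e-08). Pmaip1 rose by 0.58 ± 0.16 (limma adjusted p = 0.0048) and Zmat3 by 0.55 ± 0.20 (adjusted p = 0.036). The IRI arrays of total RNA spread widely, and the third of them was apart: Zmat3 read 7.55, 7.33 and 6.32 and Mdm2 8.58, 8.93 and 7.81. Without that array, 5 of the 9 genes were called, the change of Zmat3 was 0.92 (limma adjusted p = 8.0e-05) and that of Pmaip1 was 0.37 and not called (adjusted p = 0.076). Without the first IRI array, 5 of the 9 were also called, and the change of Zmat3 was 0.31 (limma adjusted p = 0.24). The Zmat3 call was also lost without the second IRI array or the second or the third sham array and under quantile normalization (limma adjusted p = 0.058 to 0.13). The nephron pull-down and total RNA responses differed for 1 gene, Eda2r (0.98 ± 0.23, limma adjusted p = 0.017), where 3.3% of all genes were called (1.31% higher, 2% lower). Eda2r in total RNA lay under the filter level in all 6 arrays (4.24 to 4.90), and the difference was not called in a fit of these groups alone (adjusted p = 0.29) or without the second nephron IRI array (0.79, adjusted p = 0.064). Without the second total RNA IRI array Btg2 differed as well (0.65, limma adjusted p = 0.037).

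Other genes around p53 were counted from lists written with earlier results of these data known. Of 33 other p53 targets tested, 9 were higher and 1 lower at 4 h in the nephron, and 17 were higher and 7 lower at 24 h, with medians of -0.04 and 0.34, where 18.1% and 28.6% of all genes were called. Of the 9 members, 0 were called lower at either time, where 10.6% and 14.7% of all genes were. The members were also chosen with earlier results of these data known, so no difference from this list is drawn, and none was tested. At 4 h the largest rises were Plk3, a polo-like kinase and relative of Plk2 (2.52 ± 0.21), Epha2, a receptor tyrosine kinase for ephrins (2.19 ± 0.19), Gadd45a, a stress sensor that halts the cell cycle (2.12 ± 0.34), and Ddit4, an inhibitor of mTOR signalling (1.54 ± 0.29), with limma adjusted p of 8.0e-11, 3.3e-10, 1.6e-05 and 1.6e-04. At 24 h they were Epha2 (2.24 ± 0.19), Lif, a cytokine of the interleukin-6 family (1.68 ± 0.33), Rap2b, a small GTPase (1.67 ± 0.19), and Plk3 (1.54 ± 0.21), with limma adjusted p of 9.4e-11, 1.7e-04, 2.4e-08 and 5.9e-07. The named targets did not share 1 course from 4 h to 24 h. Gadd45a and Plk3 fell by -1.15 ± 0.34 and -0.98 ± 0.21 (limma adjusted p = 0.0089 and 4.5e-04). Rap2b rose by 0.70 ± 0.19 (limma adjusted p = 0.0049). Epha2 (0.05), Lif (0.45) and Ddit4 (-0.56) were not called.

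Of 20 p53 regulators tested, 2 were higher and 1 lower at 4 h and 3 were higher and 0 lower at 24 h, where 18.1% and 28.6% of all genes were called. They included Rpl5, a ribosomal protein that binds Mdm2 (0.93 ± 0.13 at 4 h and 0.74 ± 0.13 at 24 h, limma adjusted p = 1.4e-06 and 2.2e-05), the deacetylase Sirt1 (0.71 ± 0.13 and 0.49 ± 0.13, adjusted p = 1.2e-04 and 0.0037), the kinase Hipk2 at 4 h (-0.48 ± 0.15, adjusted p = 0.021) and the deubiquitinase Usp7 at 24 h (0.26 ± 0.09, adjusted p = 0.027).

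**Figure D4:**
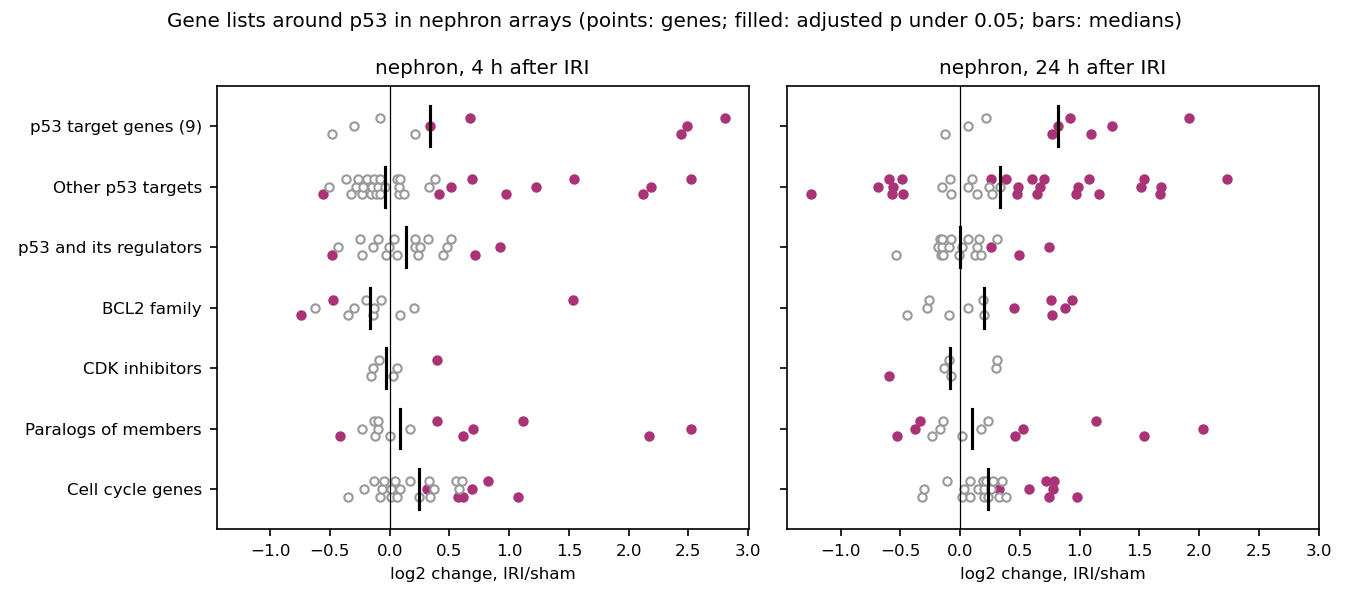
Log2 change from sham in the nephron at 4 h (left) and 24 h (right) for the 9 p53 target genes and 6 lists of related genes, with 1 point per gene, filled where the adjusted p is under 0.05, and a bar at each list's median. The members' median is 0.34 at 4 h and 0.82 at 24 h, and that of the other p53 targets is -0.04 and 0.34.

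Relatives of the members in the same families gave mixed results. Of 12 BCL2 family genes, which act with Pmaip1 and Bbc3, 1 was higher and 2 lower at 4 h and 5 were higher and 0 lower at 24 h, against 18.1% and 28.6% of all genes called. Mcl1, the anti-apoptotic protein that Pmaip1 binds, rose by 1.53 ± 0.16 at 4 h and 0.93 ± 0.16 at 24 h (limma adjusted p = 7.1e-09 and 1.8e-05), while anti-apoptotic Bcl2 (-0.74 ± 0.25) and pro-apoptotic Bad (-0.47 ± 0.11) fell at 4 h (adjusted p = 0.034 and 0.0028). At 24 h the other rises included pro-apoptotic Bak1 (0.88 ± 0.23) and Bok (0.77 ± 0.17) and anti-apoptotic Bcl2l1 (0.76 ± 0.18), with limma adjusted p of 0.0032, 8.3e-04 and 9.5e-04. Of 14 paralogs of the members, 6 were higher and 1 lower at 4 h and 5 were higher and 3 lower at 24 h, against the same shares of all genes. Phlda1, a relative of Phlda3, was already up at 4 h (2.17 ± 0.22, limma adjusted p = 7.1e-09) and stayed up at 24 h (2.03 ± 0.22, adjusted p = 1.1e-08). Btg1, a relative of Btg2, rose by 0.70 ± 0.12 and 1.14 ± 0.12 (limma adjusted p = 8.1e-05 and 9.0e-09), and Tob1 of the same family was higher at 4 h (0.40 ± 0.12, adjusted p = 0.019) and lower at 24 h (-0.53 ± 0.12, adjusted p = 0.0010). Ccng2, the closest relative of Ccng1, rose by 1.12 ± 0.15 at 4 h and 0.53 ± 0.15 at 24 h (limma adjusted p = 1.4e-06 and 0.0080), where Ccng1 was not called. Plk3 and Plk1 are counted in this list and also among the other p53 targets and the cell cycle genes, respectively.

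Cell cycle genes were also counted, since Btg2 and Plk2 act there. Of 25 tested, 6 were higher and 0 lower at 4 h and 7 were higher and 0 lower at 24 h, with medians of 0.24 and 0.23. Over all genes, 18.1% were called at 4 h (7.53% higher) and 28.6% at 24 h (13.9% higher). Among them were Mki67 (1.07 ± 0.23), Ccnb2 (0.83 ± 0.22), Top2a (0.69 ± 0.19) and Plk1 (0.61 ± 0.19) at 4 h, and Cdk1 (0.98 ± 0.23), Rrm2 (0.79 ± 0.24), Mcm3 (0.78 ± 0.16) and Aurkb (0.75 ± 0.14) at 24 h, with limma adjusted p from 8.6e-04 to 0.020 and from 5.2e-05 to 0.013. Of 6 CDK inhibitors other than Cdkn1a, Cdkn1c was higher at 4 h (0.40 ± 0.14, limma adjusted p = 0.041) and Cdkn2c was lower at 24 h (-0.59 ± 0.17, adjusted p = 0.0089).

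Across the 13 group means of the Cre lines, the members did not share 1 pattern, and these correlations are descriptions over groups that share arrays, lines and injury. Pearson's r between members was highest for Eda2r and Zmat3 (0.78) and for Btg2 and Pmaip1 (0.73), and lowest for Plk2 and Ccng1 (-0.54). The genes most like each member over these 13 means were Klf6 (0.97), Rpl5 (0.96) and Dusp10 (0.95) for Btg2, Rnf19a (0.97), Trim16 (0.97) and Serpinb6d (0.93) for Plk2, and Jund (0.93), Topors (0.91) and Zbtb21 (0.90) for Pmaip1. For the late genes they were Ranbp17, Sec14l2 and Slco5a1 (each 0.93) for Eda2r, Fgfr1 (0.93), Bmp1 (0.92) and Slco2a1 (0.92) for Phlda3, and Bco1 (0.97), Defb19 (0.97) and Akt1s1 (0.96) for Zmat3. For Mdm2 they were Rasa2 (0.93), Vmn2r76 (0.93) and Il17ra (0.92), for Bbc3 Pdia6 (0.93), H1f3 (0.92) and Blnk (0.90), and for Ccng1 Txn2 (0.98), Hacd2 (0.97) and S100a1 (0.97). The widest range of group means was that of Plk2, 4.23 log2 units from the myeloid sham group to the endothelial IRI group, and the narrowest that of Bbc3, 0.73 log2 units from the interstitial sham group to the unoperated myeloid group.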

How the data were processed

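The data are 57 Affymetrix Mouse Gene 1.0 ST arrays. The deposited table holds linear intensities that the authors made with RMA in Affymetrix Expression Console 1.3.1, per the submitters' processing notes. RMA as usually run includes quantile normalization of arrays together, which can shrink a shift shared by most genes. The medians of total RNA arrays (43.9 to 53.3) and TRAP arrays (105.8 to 128.4) differed, so the 57 arrays were not all brought to 1 distribution. The test was planned for log2 values and the table is linear, so log2 was taken first, with no further normalization. By the platform annotation, 21789 of 35556 probe sets name 1 gene, 1621 name several and 12146 name none; the probe set with the highest mean stood for a gene. limma 3.58.1 in R 4.3.3 was fitted on 45 arrays (all but the 12 background arrays), or on 57 where background was compared, with 1 coefficient per group, and was tested on simulated data. p-values measure the spread between the labelled biological replicates. Replicate numbers did not pair samples, since no comparison had a correlation of deviations above 0.1 in every pair. All 9 measured members entered every comparison; from each other list up to 4 called genes with the largest change were named, and 3 genes most like each member. The members and lists were chosen with earlier results of these data known. Alternatives were quantile normalization, an offset of 16, no filter, mean of probe sets, a replicate block, smaller fits and leaving out arrays. Array number limits precision. Figures were drawn with matplotlib 3.10.9.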

Additional observations from a re-analysis of the deposited data

Results flagged for a closer look

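Tests of a difference between responses called some members, and these calls are to be read against the shares of all genes called. Those shares were 27.7% from 4 h to 24 h in the nephron and 46.6% by the F test across the 4 lines. They were 23.3% for the nephron response, 29% for the endothelial and 18.5% for the myeloid response. For the nephron against the total RNA response the share was 3.3%. From 4 h to 24 h in the nephron, Phlda3 (1.58), Zmat3 (1.12) and Eda2r (1.07) were higher and Plk2 (-1.88), Pmaip1 (-1.67), Btg2 (-0.57) and Mdm2 (-0.46) were lower by limma on the log2 scale. The responses of the 4 lines to IRI differed by the limma F test for Btg2 (adjusted p = 1.0e-07), Eda2r (2.4e-04), Bbc3 (0.0032), Mdm2 (0.0043) and Phlda3 (0.0050). The nephron response exceeded that of the other lines for Btg2 (1.37) and Eda2r (1.02) and fell short for Mdm2 (-0.69). The endothelial response was larger for Bbc3 (0.34) and smaller for Btg2 (-0.57) and Ccng1 (-0.45). The calls of Bbc3 and Ccng1 were lost in several fits that left out 1 array. The myeloid response was smaller for Btg2 (-1.14), Phlda3 (-1.10), Eda2r (-0.69), Bbc3 (-0.55) and Pmaip1 (-0.53). The call of Pmaip1 was lost under quantile normalization and in many fits that left out 1 array, as was the fall of Mdm2 from 4 h to 24 h in several such fits. The nephron response exceeded that of total RNA for Eda2r (0.98), which lay under the filter level in total RNA. That difference was not called in a fit of these groups alone. In the 18 sets of 4 background arrays after IRI (9 genes in 2 groups), no array was far enough from the rest for Dixon's criterion, including the high Phlda3 array of the wild-type group.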

How the results depend on the processing

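Of 3950 values of the members recomputed under alternatives, 3787 kept their side of the threshold and, when called, their sign. In all, 0 called values reversed, and 84 that were called in neither fit changed sign. The 3787 include 225 values under the mean of probe sets and 225 without the filter. Those 2 settings left the members' own intensities unchanged, since each member has 1 probe set and passed the filter. Only the part of the fit that comes from other genes could differ there, so these values say little about robustness. Quantile normalization moved the median of all genes by under 0.1 in every comparison. Counts of called members moved by over 1.5 times as follows. Without the total RNA arrays, 8 genes differed among the 4 responses (5 in the main fit) and 5 differed in the endothelial response (3 in the main fit), as did 5 under quantile normalization. In fits of only the groups compared, the counts were 6 for the endothelial response, 1 for the interstitial response (main 0), 0 for interstitial sham against no surgery (main 1), 0 for nephron against total RNA (main 1) and 1 for total RNA (main 3). With the replicate block the L10a background count was 3 (main 5), and no other count of called members moved past 1.5 times with that block. Leaving out 1 array gave 1 to 4 for the endothelial response, 0 to 1 for interstitial and for endothelial sham against no surgery, 3 to 5 for the L10a background, 0 to 2 for nephron against total RNA, 3 to 6 for nephron against wild-type sham and 2 to 5 for total RNA; other counts stayed within 1.5 times. Counts over all genes also moved, which changes the background that the members are read against. In fits of only the groups compared, 5557 genes were called at 4 h in the nephron (3492 in the main fit), 689 in total RNA (5958), 8 for nephron against total RNA (636), 4936 for the interstitial response (3064) and 5406 for the myeloid response (3555). For sham against no surgery such fits called 973 genes in the nephron (311), 350 in the interstitial (1985), 20 in the endothelial (142) and 26 in the myeloid line (323). Without the total RNA arrays, 5270 genes were called at 4 h, 4796 for the interstitial response, and 907, 3562 and 681 for sham against no surgery in the nephron, interstitial and myeloid lines. Leaving out 1 array gave 270 to 3946 for nephron against total RNA, as few as 105, 809, 55 and 35 for sham against no surgery in the nephron, interstitial, endothelial and myeloid lines, and 4944 for the L10a background (7419) without its first sham array. The number of arrays, 3 in most groups and 2 in the background sham groups, limits precision.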
